A study of Saccharomyces cerevisiae SK1 with 8 samples.

Results

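The proteasome is the protease that degrades proteins tagged with ubiquitin, and RPN4 encodes the transcription factor that drives the genes of its subunits in budding yeast. RPN4 and 32 subunit genes, 33 genes in all of the 6663 that were counted, were taken by their systematic names. The rule names genes and uses no measured value, but the set was proposed with earlier results of these data known. The subunits comprise 14 genes of the core particle, 6 ATPase genes of the regulatory particle (RPT1 to RPT6) and 12 non-ATPase genes of the regulatory particle. All 33 genes passed the filter on low counts, which 5932 genes passed.

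The core particle is a barrel of stacked rings whose inner chambers hold the proteolytic sites, encoded by PRE2, PRE3 and PUP1. The regulatory particle caps it: the Rpt ATPases unfold substrates and thread them into the barrel, Rpn1, Rpn10 and Rpn13 bind ubiquitin, and the lid subunit Rpn11 removes ubiquitin chains. Rpn4 binds an element named PACE (proteasome-associated control element) in promoters of subunit genes. The Rpn4 protein is itself degraded quickly by the proteasome, which forms a feedback loop, and the heat shock factor Hsf1, the oxidative stress factor Yap1 and the drug resistance factors Pdr1 and Pdr3 are known to act on its gene. The question put to the counts was whether subunit transcripts followed the RPN4 transcript across the 4 groups. Protein was not measured.

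Polyadenylated RNA came from 8 cultures of diploid (MATa/alpha) SK1 yeast, 2 biological replicates in each of 4 groups, collected 3 h after dilution into YEPD at 30 °C. The groups were the pus1::KanMX deletion with anhydrotetracycline (aTC, the inducer), the deletion with the solvent DMSO, wild type at PUS1 with aTC, and wild type at PUS1 with DMSO. PUS1 encodes an enzyme that converts uridine to pseudouridine, chiefly in tRNA. All 4 groups carried a truncated, tagged Pus1 (altPus1-3V5) behind a tet operator promoter at his3, so the isoform was expressed from a construct and not from the native locus. All 4 also carried TetR-Tup1 behind the RNR2 promoter and TetR behind a tet operator promoter at ura3, and no group lacked these parts. The labels say nothing more of how replicates were started, so p-values measure the spread between these cultures.

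Promoters were read from the RefSeq S288C assembly R64, from 250 bases upstream of the start codon to 50 bases past it, and the sequences are those of the reference and not of the SK1 strains. PACE was searched as GGTGGCAAA on both strands. It was present in 27 of 32 subunit promoters (84.4%), against 72 of 6001 promoters in the genome (1.2%). The sites lay 76 to 175 bases upstream of the start codon, with a median of 112, and 19 of 27 pointed along the gene. The first set shown holds the 7 subunits that were called lower in the deletion, then RPN3, which had the largest subunit value with aTC averaged over genotypes, and RPT3, whose levels were most like those of RPN4. Each is given along the strand that carries the motif, with 10 bases on either side and PACE in capitals.
RPN5, chr4:190776-190804, plus strand: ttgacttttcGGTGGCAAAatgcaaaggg
RPN12, chr6:252398-252426, minus strand: aatttcaatgGGTGGCAAAtaatgtgtag
RPN11, chr6:153259-153287, plus strand: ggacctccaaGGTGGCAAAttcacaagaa
RPN7, chr16:742290-742318, minus strand: atcctcaatgGGTGGCAAActtaacttat
RPN2, chr9:220801-220829, minus strand: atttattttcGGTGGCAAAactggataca
PRE7, chr2:141150-141178, plus strand: aaactcaaagGGTGGCAAAaacaagcggt
PRE9, chr7:761223-761251, plus strand: ttaccctgcaGGTGGCAAAaaatttatag
RPN3, chr5:196843-196871, minus strand: ctctttcttgGGTGGCAAAtgtttttcgt
RPT3, chr4:1261495-1261523, plus strand: ctgaaagtaaGGTGGCAAAatagtaaatc

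The 5 subunit promoters without an exact copy each held PACE with 1 mismatch, a search added after the exact one had been seen. With 1 mismatch allowed, 32 of 32 subunit promoters held the motif, against 454 of 6001 promoters (7.57%). Counting from 1 at the 5′ end of PACE, PRE5, PUP1 and RPN8 carried G1A, and RPN10 and RPN13 carried A7G. They are shown to set the variants beside the exact copies, with the variant motif in capitals.
PRE5, chr13:901552-901580, plus strand: cctattatagAGTGGCAAAattaaaaatt
PUP1, chr15:631891-631919, minus strand: aacccggccgAGTGGCAAAataccaaaaa
RPN8, chr15:817085-817113, minus strand: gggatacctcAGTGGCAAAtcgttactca
RPN10, chr8:498968-498996, minus strand: tgtaaattccGGTGGCGAAaacccgcctg
RPN13, chr12:965656-965684, minus strand: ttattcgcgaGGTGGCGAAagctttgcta

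The RPN4 promoter held no PACE, exact or with 1 mismatch, in this window. Elements of its known regulators were searched only as exact copies in this window, so sites farther upstream or less exact would be missed. The promoter held no TCCGCGGA (the element of Pdr1 and Pdr3, in 0.217% of promoters) and no TTACTAA or its reverse complement TTAGTAA (Yap1, in 7.45%). It held 1 copy of TTCNNGAA, the core of an Hsf1 element, 14 bases upstream of the start codon, a motif found in 12.9% of promoters. This is the one match in the window of the regulator's own gene and is shown with the match in capitals.
RPN4, chr4:416712-416739, minus strand: ttcaaaagttTTCTAGAAttttcaagca

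Total counts ran from 51331492 to 61960514 per library. PUS1 followed the labels: it had 42829 and 51740 reads in the deletion with aTC, 2 and 4 in the deletion with DMSO, 68028 and 56790 in wild type with aTC, and 11004 and 12139 in wild type with DMSO. Of 11 haploid-specific genes, which a/alpha diploids repress, 4 or 5 were under 1 CPM (the standard read count scaled by library size, here after edgeR's trimmed-mean correction) in each library, and the 11 summed to 56.7 to 71.93 CPM. The highest were FAR1 (24.59 to 34.73 CPM), HO (9.068 to 11.55 CPM) and STE2 (7.219 to 9.142 CPM). In the deletion averaged over treatments all 11 were above 0 (background 51.1%). By edgeR 6 had an unadjusted p under 0.05, all higher (background 18.1%). STE4 (log2 0.26, SE 0.0836, edgeR adjusted p = 0.0465) and RME1 (log2 0.71, SE 0.193, adjusted p = 0.0272) were called higher there by edgeR (background 10%) and not by DESeq2. The part of these genes in the results was not tested. Among the 33 genes, RPT1 shared 93 bases with YKL145W-A on the same strand, where reads were dropped, and no other overlapped a listed gene. The 33 genes lie on 13 chromosomes, and the closest pair, RPT4 and RPN8 on chromosome 15, is 2208 bases apart.

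RPN4 (YDL020C, on the minus strand of chromosome 4 at 428780 to 430375 of the files' annotation) was higher with aTC than with DMSO in every library of both genotypes. It stood at 75.7 and 92.4 CPM in the deletion with aTC, against 58.1 and 63.9 CPM in the deletion with DMSO. In wild type it stood at 65.7 and 73.3 CPM with aTC, against 51.4 and 52.6 CPM with DMSO. The lowest aTC library lay above the highest DMSO library. In such bulk cultures, more cells with a transcript and more of it per cell cannot be told apart. Averaged over genotypes, RPN4 rose 1.36-fold with aTC (log2 0.44, SE 0.0653, edgeR quasi-likelihood adjusted p = 0.0082), one of the 0.775% of tested genes called higher in that comparison. The call was lost without replicate 1 of the deletion with DMSO (log2 0.41, adjusted p = 0.0792).

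Within 1 genotype the RPN4 change had nearly the same size but was not called. It was 1.38-fold in the deletion (log2 0.46, SE 0.0919, adjusted p = 0.0588) and 1.34-fold in wild type (log2 0.42, SE 0.0928, adjusted p = 0.138). The responses of the genotypes differed by a log2 of 0.04 (SE 0.13, adjusted p = 0.924), and the sign of that difference turned without any of 3 libraries. DESeq2 called RPN4 higher in the deletion (adjusted p = 3.97e-04) and in wild type (adjusted p = 0.00339), and edgeR called it in the deletion when low genes were kept (adjusted p = 0.0441). It was also called in the deletion without replicate 1 of the deletion with aTC (adjusted p = 0.0275) and without either replicate of wild type with aTC (0.00536 and 0.00539).

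The subunit genes did not show a change of that size. Their summed level was 5445 and 5730 CPM in the deletion with aTC, against 5537 and 5444 CPM in the deletion with DMSO. Wild type had 6085 and 5887 CPM with aTC, against 5714 and 5799 CPM with DMSO. The sums of the deletion overlapped between treatments, and those of wild type did not. As a percentage of the mean of wild type with DMSO, RPN4 averaged 161.6% ± 22.6 in the deletion with aTC, 117.3% ± 7.80 in the deletion with DMSO and 133.7% ± 10.3 in wild type with aTC (SD, n = 2 each). On the same scale the median subunit averaged 97.5% ± 3.51, 96.2% ± 1.37 and 104% ± 1.85 in those 3 groups.

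**Figure D1:**
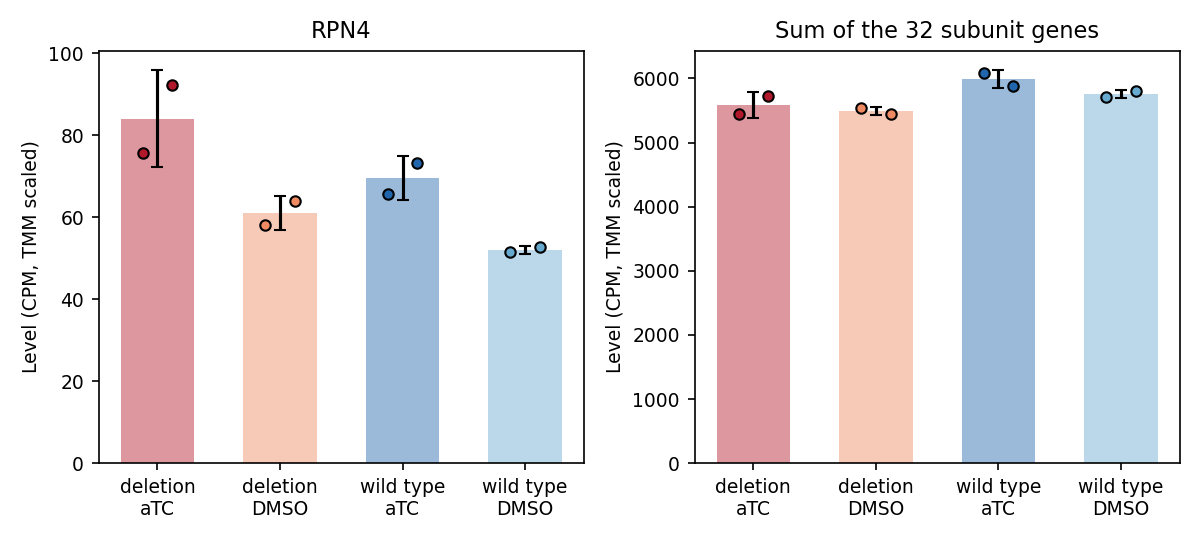
RPN4 (left) and the sum of the 32 subunit genes (right) in CPM by group; bars are means, error bars are SD (n = 2) and points are libraries. RPN4 reached 75.7 and 92.4 CPM in the deletion with aTC, against 51.4 and 52.6 CPM in wild type with DMSO, while subunit sums ran from 5444 to 6085 CPM.

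With aTC in the deletion, edgeR called 0 of the 33 genes, against 0.506% of all tested genes called in either direction. At an unadjusted p under 0.05 there were 8 of them, all higher (background 10.5% higher), and DESeq2 called RPN4 and RPN3 (background 2.27% higher). The median log2 fold change of the 32 subunits was 0.01, against 0.00 over all tested genes, and 17 of 32 were above 0 (background 51.1%). The subunit median turned to -0.04 without replicate 2 of the deletion with aTC (-0.01727 over all genes in that fit). It turned to -0.02 without replicate 2 of the deletion with DMSO (0.002976 over all genes). With aTC in wild type, edgeR again called 0 of the 33 genes (background 0.371%), 2 were under an unadjusted p of 0.05 (RPN4 and RPN2, background 2.07% higher), and DESeq2 called RPN4 (background 0.392% higher). There the subunit median was 0.05 and 30 of 32 subunits were above 0, against 55.7% of all tested genes. These 30 values reached at most 0.12, in RPN2, a scaffold of the base (SE 0.0515, adjusted p = 0.99).

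Averaged over genotypes, 0 of the 32 subunits was called with aTC by edgeR, 7 were under an unadjusted p of 0.05, all higher (background 9.74% higher), and DESeq2 called RPN3 (background 1.78% higher). The subunit median log2 was 0.04, against 0.00 over all tested genes, and 20 of 32 were above 0 (background 51.3%). Without replicate 2 of the deletion with aTC the subunit median was -0.00164, against -0.01521 over all genes in that fit. The libraries did not overlap between treatments for 4 subunits, PRE5, RPT3, RPT5 and RPN3, each higher with aTC (background 3.89% higher, 2.6% lower).

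RPN3 (YER021W), a structural subunit of the lid, had the largest subunit value with aTC averaged over genotypes. It stood at 234.1 and 239.8 CPM in the deletion with aTC, against 206.8 and 204.0 CPM in the deletion with DMSO. In wild type it stood at 230.3 and 223.0 CPM with aTC, against 211.8 and 212.3 CPM with DMSO. Its averaged log2 fold change was 0.15 (SE 0.0356, adjusted p = 0.0731), so it did not pass by edgeR, although it did without replicate 1 of wild type with aTC. Among core particle genes the extremes were PRE7, a structural subunit of the inner rings (log2 0.12, SE 0.0364, adjusted p = 0.149), and SCL1, of the outer rings (log2 -0.03, adjusted p = 0.669). The ATPase genes ran from RPT4 (log2 -0.05, adjusted p = 0.639) to RPT3 (log2 0.09, adjusted p = 0.215), and RPN13, a ubiquitin receptor, was the lowest non-ATPase gene (log2 -0.04, adjusted p = 0.676).

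**Figure D2:**
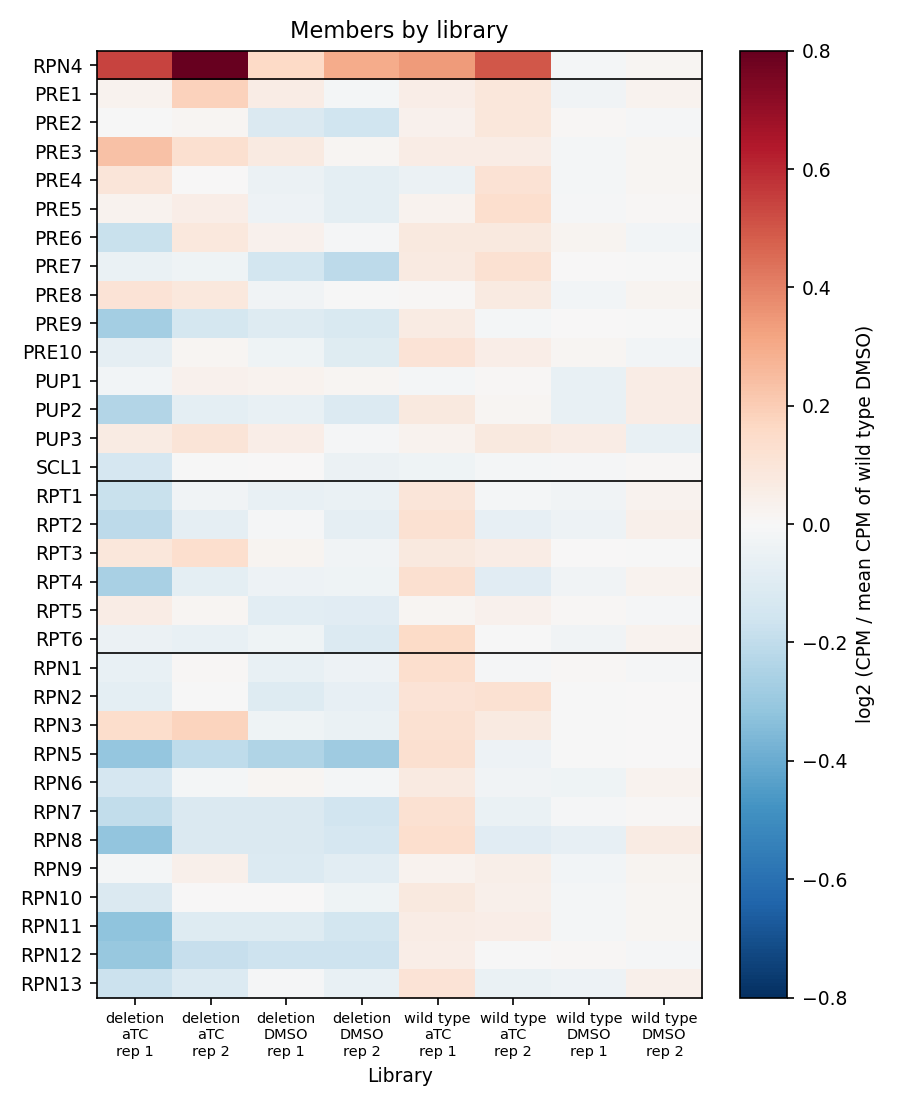
Log2 ratio of each gene's CPM to its mean in wild type with DMSO, by library (columns) and gene (rows: RPN4, then core particle, ATPase and non-ATPase genes). The RPN4 row is above 0 in all libraries with aTC and in both deletion libraries with DMSO, while RPN5, RPN7, RPN11 and RPN12 are below 0 in all 4 deletion libraries.

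In the deletion RPN4 was called higher and 7 of the 32 subunit genes were called lower. RPN4 was higher in the deletion than in wild type averaged over treatments, 1.19-fold (log2 0.25, SE 0.0652, edgeR adjusted p = 0.0222), as were 10% of tested genes. Its libraries overlapped, running from 58.1 to 92.4 CPM in the deletion and from 51.4 to 73.3 CPM in wild type. The call was lost without replicate 2 of the deletion with aTC (adjusted p = 0.059), without replicate 1 (0.0535) or 2 (0.112) of the deletion with DMSO, or without replicate 1 of wild type with DMSO (0.0596). Within 1 treatment it was not called, at a log2 of 0.27 with aTC (SE 0.0915, adjusted p = 0.0697) and 0.23 with DMSO (SE 0.0929, adjusted p = 0.258). With aTC it was called by DESeq2 (adjusted p = 0.0351, background 5.75% higher), with total counts (adjusted p = 0.0495) and without replicate 2 of wild type with aTC (adjusted p = 0.0229).

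In the same comparison 7 of 32 subunits were called lower and 0 higher, where 11.2% of tested genes were called lower and 10% higher. By edgeR at an unadjusted p under 0.05, 13 subunits were lower and 0 higher (background 19.2% lower, 18.1% higher), and DESeq2 called 9 lower and 0 higher (background 14.4% lower, 8.78% higher). The median subunit stood at a log2 of -0.08, against 0.00 over all tested genes, and 7 of 32 were above 0 (background 51.1%). The median was -0.04 over the 14 core particle genes, -0.10 over the 6 ATPase genes and -0.11 over the 12 non-ATPase genes, of which 11 were below 0. Libraries did not overlap between genotypes for 9 subunits, each lower in the deletion (background 9.17% lower, 11% higher). They were PRE7, PRE9, RPT1, RPT6, RPN5, RPN7, RPN8, RPN11 and RPN12.

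RPN5 (YDL147W), a structural subunit of the lid, fell furthest. It stood at 200.6, 216.5, 211.0 and 203.9 CPM in the 4 deletion libraries (aTC, then DMSO), against 271.7, 242.2, 248.5 and 249.2 CPM in the 4 wild-type libraries in the same order. Every deletion library lay below every wild-type library, and the difference was 1.22-fold lower (log2 -0.28, SE 0.0463, adjusted p = 0.00684). RPN12 (YFR052W), another lid subunit, had 86.9, 94.1, 95.3 and 95.3 CPM in the deletion, against 111.0, 106.7, 107.6 and 106.3 CPM in wild type. It was 1.16-fold lower (log2 -0.22, SE 0.0396, adjusted p = 0.00806), again without overlap.

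RPN11 (YFR004W), the deubiquitinase of the lid, had 97.7, 113.8, 113.9 and 110.5 CPM in the deletion, against 127.8, 127.0, 120.9 and 124.0 CPM in wild type. It was 1.15-fold lower (log2 -0.20, SE 0.0484, adjusted p = 0.0184), with replicate 1 of the deletion with aTC well below the other 3. RPN7 (YPR108W), also of the lid, had 141.3, 149.4, 149.4 and 145.6 CPM in the deletion, against 176.1, 156.5, 161.3 and 162.9 CPM in wild type. It was 1.12-fold lower (log2 -0.17, SE 0.0449, adjusted p = 0.0268). RPN2 (YIL075C), the base scaffold, was 1.09-fold lower (log2 -0.12, SE 0.0365, adjusted p = 0.0408), and it was the one called subunit whose libraries overlapped, at 520.5 to 557.7 CPM in the deletion and 556.0 to 606.9 CPM in wild type.

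In the core particle, PRE7 and PRE9 were called lower. PRE7 (YBL041W) had 155.5, 157.6, 145.8 and 139.7 CPM in the deletion, against 169.7, 175.5, 161.4 and 161.2 CPM in wild type (log2 -0.16, SE 0.0364, adjusted p = 0.0151). PRE9 (YGR135W), whose product is the one core particle subunit that yeast can live without, had 151.7, 166.2, 170.8 and 168.3 CPM in the deletion, against 191.5, 181.7, 183.7 and 182.8 CPM in wild type (log2 -0.17, SE 0.0414, adjusted p = 0.0179). Neither gene's libraries overlapped between genotypes. PRE3, which encodes a proteolytic subunit, had the highest core particle value (log2 0.08, SE 0.0386, adjusted p = 0.139), and the files list it as 1 exon of 764 bases where R64 gives 2 coding exons. No ATPase gene was called: they ran from RPT4 (log2 -0.11, adjusted p = 0.162) to RPT3 (log2 0.02, adjusted p = 0.694), and RPN3 was the highest non-ATPase gene (log2 0.01, adjusted p = 0.873).

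**Figure D3:**
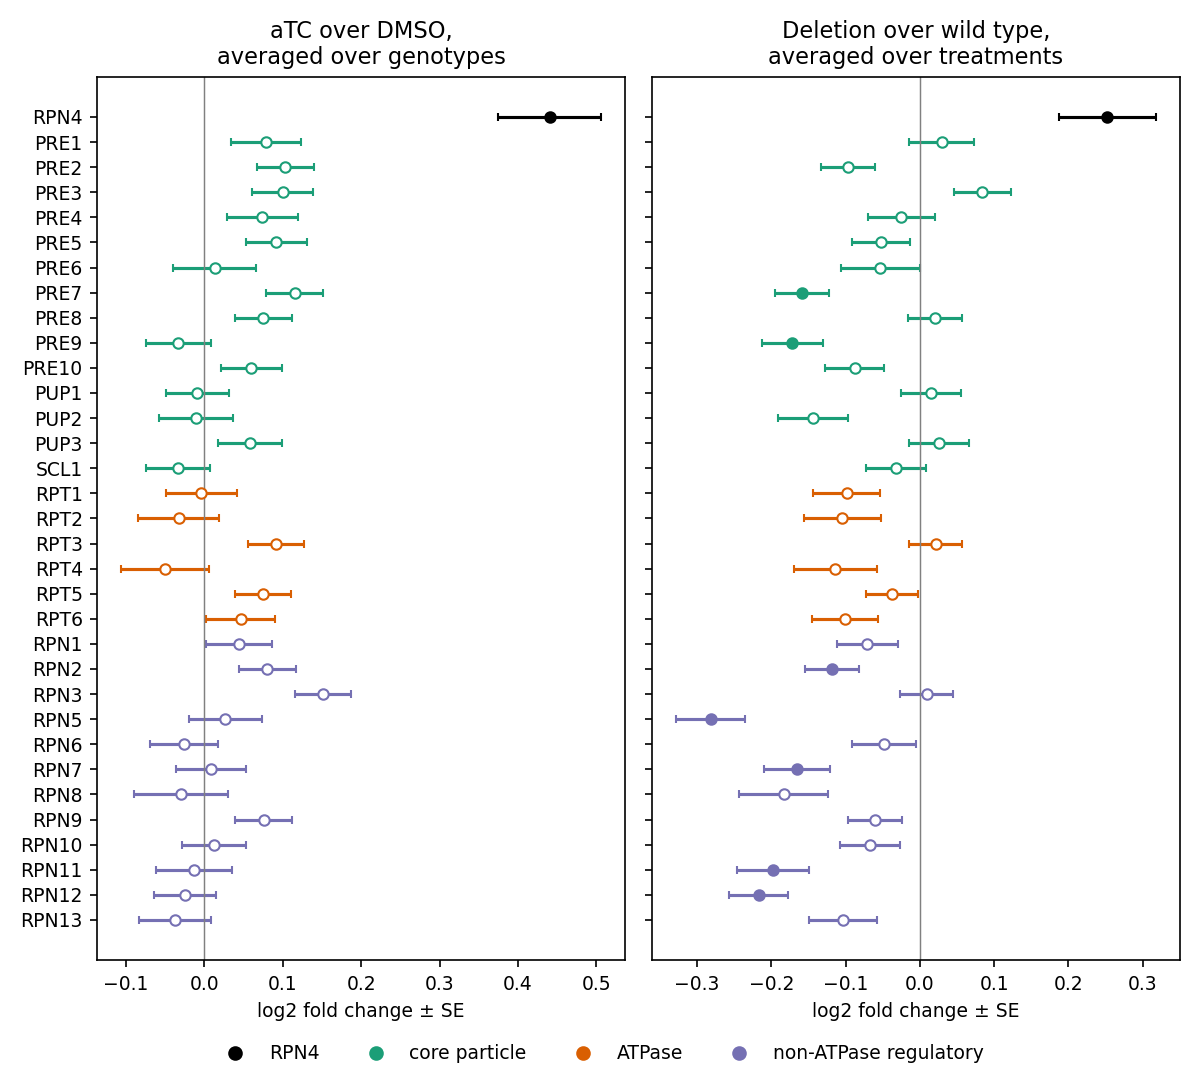
Log2 fold change ± SE (edgeR) of each gene for aTC over DMSO (left) and deletion over wild type (right), each averaged over the other factor; filled points passed an adjusted p under 0.05. With aTC RPN4 alone is filled, at 0.44, and in the deletion RPN4 is filled at 0.25 and 7 subunits are filled below 0.

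The number of subunits called lower in the deletion depended on single libraries and on scaling. Calls were lost or gained when 1 library was left out, and how many of all tested genes those fits called was not counted. The subunit median log2 then ran from -0.11 (without replicate 2 of the deletion with aTC) to -0.06 (without replicate 1 of that group). With total counts in place of trimmed scaling, 2 subunits (RPN5 and RPN12) were called lower and PRE3 was called higher. Of the 5932 tested genes 1619 were then called, 82.83% of them higher, against 1260 and 47.06% with trimmed scaling. The all-gene median then stood at 0.07 and the subunit median at -0.01. RPN5 and RPN12 were called in 7 of the 8 fits that left out 1 library, PRE7 and RPN11 in 6, PRE9 in 5, RPN7 in 2 and RPN2 in 1.

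With aTC in both genotypes, 4 subunits were called lower in the deletion than in wild type, RPN5, RPN11, RPN12 and PRE9, where 8.13% of tested genes were called lower. RPN5 had a log2 of -0.30 (SE 0.0655, adjusted p = 0.0203), RPN12 -0.27 (SE 0.056, adjusted p = 0.0186), RPN11 -0.27 (SE 0.0685, adjusted p = 0.0285) and PRE9 -0.23 (SE 0.0586, adjusted p = 0.0284). The subunit median was -0.11 and 9 of 32 were above 0 (background 51%). DESeq2 called 8 lower (background 11.9%). Replicates stood apart here: the median non-ATPase gene was at 89.9% and 95.9% of its mean in wild type with DMSO in the deletion with aTC, and at 107.9% and 99.6% in wild type with aTC. Calls of subunits were lost or gained when 1 library was left out. The subunit median then ran from -0.16 (without replicate 2 of the deletion with aTC) to -0.06 (without replicate 1 of that group). With total counts 1 subunit (RPN5) was called lower and PRE3 was called higher. Of the 5932 tested genes 897 were then called, 71.35% of them higher, against 808 and 40.35% with trimmed scaling.

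With DMSO in both genotypes, edgeR called 0 of the 33 genes (background 0.219%). At an unadjusted p under 0.05, RPN4 was higher and 4 subunits were lower (background 8.85% higher, 7.67% lower), and DESeq2 called RPN5 lower (background 1.21% lower). The subunit median log2 was -0.06 and 6 of 32 were above 0 (background 50.4%). With total counts it turned to 0.02, below the all-gene median of 0.07. RPN5 had the lowest value here too (log2 -0.26, SE 0.0655, adjusted p = 0.132).

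The change with aTC was not called different between genotypes for any of the 33 genes by edgeR (background 0.0169%), with 0 at an unadjusted p under 0.05 (background 7.23%) and 0 by DESeq2 (background 0.016%). Subunit values for that difference ran from -0.15 (RPT4, SE 0.111) to 0.11 (RPN3, SE 0.0713).

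Levels were compared between genes per kilobase of exon, averaged over libraries. Core particle genes had a median of 201.7 CPM per kilobase, from PUP1 at 154.3 to PRE5 at 271.3. ATPase genes had a median of 142.1, from RPT3 at 134.3 to RPT6 at 161.2, and non-ATPase genes 135.2, from RPN7 at 120.4 to RPN13 at 205.4. RPN4 stood at 41.75 CPM per kilobase, below every subunit. The level of the highest subunit was 2.51 times that of the lowest in the deletion with aTC, 2.25 times in the deletion with DMSO, 2.21 times in wild type with aTC and 2.18 times in wild type with DMSO. Among ATPase genes that ratio over all libraries was 1.2, and it was 1.76 in the core particle and 1.71 among non-ATPase genes.

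**Figure D4:**
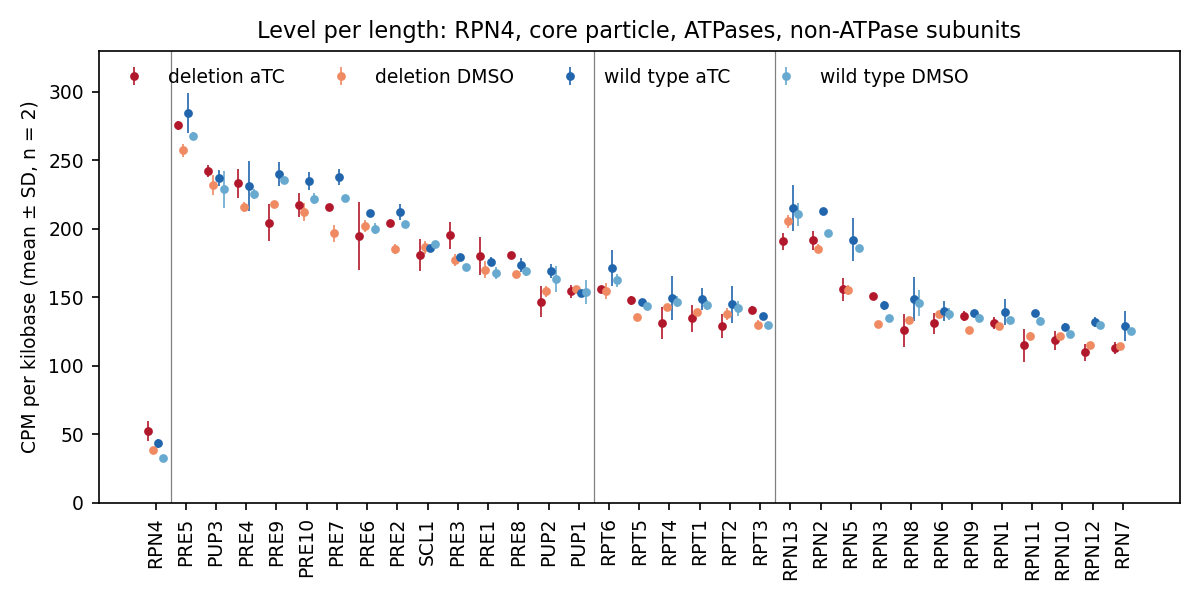
Level of each gene in CPM per kilobase of exon (mean ± SD, n = 2) by group; vertical lines separate RPN4, core particle, ATPase and non-ATPase genes. RPN4 lies between 32.6 and 52.7 CPM per kilobase and every subunit lies above 100.

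The likeness of each gene to RPN4 was measured as Pearson's r of log2 CPM, a description over 8 libraries that fall into 4 groups and share their scaling. The median r with RPN4 was 0.04 over the 32 subunits, against 0.04 over all other tested genes, and it ran from -0.53 (RPN13) to 0.85 (RPT3). By class the median was 0.22 in the core particle, -0.23 among ATPase genes and -0.34 among non-ATPase genes. Between subunits, the median r over their 496 pairs was 0.43. The genes outside the set most like RPN4 were MRE11 (r 0.98), CTF4 (r 0.98), GTR2 (r 0.98), BUD2 (r 0.97) and CMK2 (r 0.96). Over all other tested genes r ran from -0.98 to 0.98. These 5 were picked by r over the same libraries, so sharing the direction of RPN4 was built in. Of these 5, GTR2 was called higher by edgeR in the deletion averaged over treatments (log2 0.15, adjusted p = 0.0437, background 10% higher). None was called with aTC averaged over genotypes (adjusted p 0.0599 to 0.26, background 0.775% higher).

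**Figure D5:**
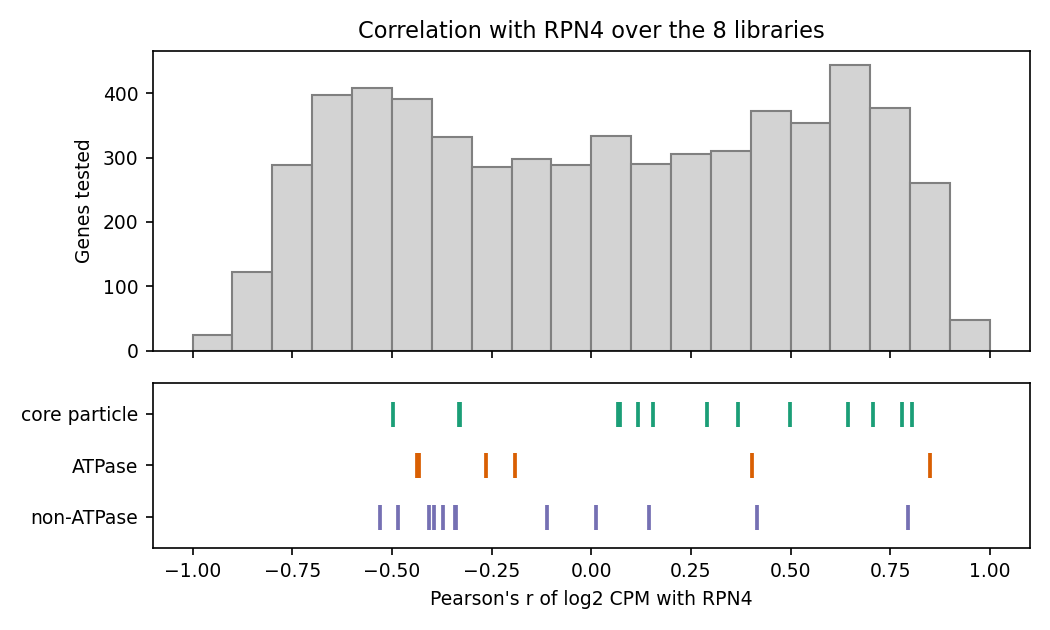
Pearson's r of log2 CPM with RPN4 over the 8 libraries: the histogram counts all other tested genes, and each tick below is 1 subunit, by class. Core particle genes have a median of 0.22, ATPase genes of -0.23 and non-ATPase genes of -0.34.

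Genes were then grouped by an exact PACE copy in the promoter. Averaged over genotypes, the 27 subunits with exact PACE had a median log2 of 0.05 with aTC and the 5 subunits without it -0.01. The 44 other tested genes with exact PACE had a median of -0.02. Of these 44, edgeR called 0, 4 were higher and 6 lower at an unadjusted p under 0.05 (background 9.74% higher, 9.15% lower), and DESeq2 called 1 higher and 1 lower (background 1.78% higher, 2.27% lower). In the deletion averaged over treatments the medians were -0.09, -0.07 and -0.04 in the same order. All 7 subunits called lower there carried an exact copy, as did 27 of the 32, and of the 44 other genes 2 were called higher and 8 lower (background 10% higher, 11.2% lower). Each window was searched on its own, so a site between neighbouring genes can count for both. The 8 include NOP14 (log2 -0.45) and GCD1 (log2 -0.12), next by systematic name to RPN5 and RPT4. ALG13 (next to RPT6), MPO1 (SCL1), YPI1 (RPN11), YTH1 (RPN7) and YOL038C-A (PRE6) are also among the 44 and were not called. Shared sites were not set apart, so the 44 are not a separate comparison from the subunits.

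Genes that surround the proteasome were read from lists chosen with earlier results of these data known. With aTC averaged over genotypes, 0 of their members was called by edgeR in any of the 7 lists: 9 assembly chaperones, 7 accessory and activator genes, 4 ubiquitin ligase genes that act on Rpn4, 4 transcription factor genes upstream of RPN4, 10 genes of ubiquitin and its conjugation, 7 tested genes of shuttle receptors and the Cdc48 segregase, and 14 Hsf1 chaperone genes. Over these 55 tested genes, 8 were higher and 2 lower at an unadjusted p under 0.05 (background 9.74% higher, 9.15% lower), and DESeq2 called 2 higher (background 1.78%). List medians of the log2 fold change ran from -0.01 (ubiquitin ligases) to 0.08 (assembly chaperones). HSF1, YAP1, PDR1 and PDR3, the genes of the factors known to act on RPN4, were not called by edgeR in any comparison. PDR3 came nearest in the deletion with aTC against wild type with aTC (log2 0.22, SE 0.0684, adjusted p = 0.0555). DESeq2 called PDR3 higher in that comparison and with aTC in the deletion.

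In the deletion averaged over treatments, edgeR called 7 of the 55 tested genes of these lists higher and 3 lower (background 10% higher, 11.2% lower). Of the 7, 4 were Hsf1 chaperone genes, which are given further below. ADD66, which encodes an assembly chaperone of the core particle, was higher, at 39.7, 39.9, 37.8 and 36.4 CPM in the deletion (aTC, then DMSO) against 32.2, 33.8, 30.6 and 31.8 CPM in wild type (log2 0.26, SE 0.0445, adjusted p = 0.00712). SEM1, a small lid subunit outside the set, was lower (log2 -0.40, SE 0.105, adjusted p = 0.0236), but its libraries overlapped, at 23.7, 27.3, 34.0 and 33.2 CPM in the deletion and 44.2, 33.6, 32.3 and 44.2 CPM in wild type. UBR2, the ligase that marks Rpn4 for degradation, was higher (log2 0.17, SE 0.0425, adjusted p = 0.0218). UBI4, the stress-induced polyubiquitin gene, was higher (log2 0.30, SE 0.0396, adjusted p = 0.00357), while RPL40A, a ubiquitin fusion gene with a near-identical copy and so uncertain, and UBC1, a conjugating enzyme gene, were lower (log2 -0.14, adjusted p = 0.0324, and log2 -0.15, adjusted p = 0.0487). ADD66 and UBI4 were called whichever library was left out. Without replicate 2 of the deletion with DMSO, SEM1 (adjusted p = 0.0968), UBR2 (0.121), RPL40A (0.14) and UBC1 (0.173) were no longer called, and each of these 4 was called in 2 or 3 of the 8 fits that left out 1 library.

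Of 14 Hsf1 chaperone genes, 4 were called higher in the deletion averaged over treatments (background 10%) and 0 lower. The median log2 of the list was 0.19 and 13 of 14 were above 0 (background 51.1%). Unadjusted, 9 had a p under 0.05, all higher (background 18.1%), and DESeq2 called 7 higher (background 8.78%). HSP104, the disaggregase gene, stood at 196.8, 225.5, 193.6 and 208.8 CPM in the deletion, against 163.6, 147.4, 146.9 and 149.9 CPM in wild type (log2 0.44, SE 0.0536, adjusted p = 0.00215). SIS1, a cochaperone gene, had a log2 of 0.30 (adjusted p = 0.00851), and its call was lost without replicate 2 of the deletion with DMSO (adjusted p = 0.0592). SSA1 (0.46, adjusted p = 2.17e-04) and HSP82 (0.67, adjusted p = 0.00359) were also called and have near-identical copies, which makes their counts uncertain. With aTC averaged over genotypes the list's median was 0.06 and 0 of 14 were called by edgeR or DESeq2, with 0 at an unadjusted p under 0.05. The part of these genes in the RPN4 result was not tested.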

How the data were processed

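Reads were aligned with STAR, per the submitters' processing notes (no version given). The deposited values are whole-number counts of uniquely assigned reads per gene, made by the authors with featureCounts 2.0.1 over exons, per the file headers, with no strand option, so reads from overlapping antisense transcripts cannot be told apart. Reads that matched near-identical copies were not counted. The genome build is not given in the sources used here. The files' coordinates differ from R64, which supplied the promoter sequences and gene names (5931 of 6663 identifiers matched).

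Tests were fitted in R 4.3.3 by edgeR 4.0.16, whose quasi-likelihood test was given all 8 libraries as 4 groups, with trimmed-mean scaling and the package's default filter on low counts, which left 5932 genes and removed 731. The fit had 4 residual degrees of freedom and a biological coefficient of variation of 5.44%. The 7 comparisons were aTC against DMSO in each genotype and averaged, the deletion against wild type in each treatment and averaged, and the difference of the aTC responses. A gene was called at a Benjamini-Hochberg adjusted p under 0.05 over all tested genes. Standard errors were derived from the F statistic (log2 fold change over its square root). CPM values use the scaled library sizes, and log2 CPM a prior count of 2. Totals of at least 51331492 reads per library leave little counting error, and the spread between replicates exceeds it.

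Alternatives were DESeq2 1.42.0 as the test, its size factors in edgeR, total counts, no filter, a replicate block, only the libraries compared, and leaving out each library. The steps were tested on simulated data. Named are RPN4, every called gene among the 33, the extremes of each class in change and in level per length, the called genes of 7 pathway lists (at most 4 a list) and the 5 genes most like RPN4. One further list checks the diploid label. The 33 genes and the lists were chosen with earlier results of these data known.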

Additional observations from a re-analysis of the deposited data

How the results depend on the processing

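Limits are the 2 replicates per group, the scaling and single libraries; at this depth counting error is smaller than the spread between replicates. RPN4 was higher with aTC, and higher in the deletion, under every alternative run in the 6 comparisons other than the difference of responses, and which of them passed varied. With aTC in the deletion RPN4 passed under DESeq2 (log2 0.456), no filter (0.462) and only the libraries compared (0.4577). Those fits called 375 of 6236, 38 of 6236 and 702 of 5911 genes there, against 30 of 5932 in the main fit. The RPN4 value ran from 0.2957 to 0.5981 when 1 library was left out. With aTC in wild type RPN4 passed under DESeq2 (0.4152), which called 49 of 6236 genes there. Averaged, the aTC value ran from 0.3504 to 0.5081 and the deletion value from 0.171 to 0.3203 when 1 library was left out. In the deletion against wild type with aTC RPN4 passed under DESeq2 (0.267) and total counts (0.338) and ran from 0.1163 to 0.4103. There DESeq2 called 973 of 6236 genes and total counts 897 of 5932. The difference of the aTC responses turned to -0.03618 without replicate 1 of wild type with aTC, -0.02298 without replicate 1 of the deletion with DMSO and -0.1093 without replicate 2 of the deletion with aTC, the lowest value, and reached 0.18.

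The subunit median moved by more than its spread between replicates (0.0367 on the log2 scale) with total counts in the deletion averaged over treatments (-0.01171), with DMSO (0.0153) and with aTC (-0.0508). That scaling moved the all-gene median alike: the subunit median minus the all-gene median was -0.0821, -0.0583 and -0.118 with total counts, against -0.0829, -0.0584 and -0.119 with trimmed scaling. With 1 library left out the subunit median itself ran from -0.00164 to 0.05215 for aTC averaged and from -0.04383 to 0.05945 for aTC in the deletion. It ran from -0.1594 to -0.057 for the deletion with aTC, and from -0.08958 to -0.005248 for the difference of responses. Counts for the 33 genes are given here with the number called over all genes. DESeq2, over 6236 genes, called 2 with aTC averaged (223 over all genes), 2 with aTC in the deletion (375) and 1 with aTC in wild type (49). It called 9 in the deletion with aTC (973) and 1 in the deletion with DMSO (113). Without the filter 1 was called with aTC in the deletion (38 of 6236 genes). The fit on only the libraries compared called 2 with aTC in the deletion (702 of 5911 genes) and 2 in the deletion with aTC (369 of 5904). It called 1 in the deletion with DMSO (261 of 5910 genes). Total counts called 4 in the deletion averaged (1619 of 5932 genes). With 1 library left out the counts ran from 0 to 2 for aTC averaged and for aTC in the deletion, from 0 to 13 for the deletion averaged, from 0 to 12 for the deletion with aTC and from 0 to 1 for the deletion with DMSO. The cause of the other moves was not tested.

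The labels do not say whether equal replicate numbers mark paired libraries. Over all tested genes, deviations from the group means correlated between -0.156 and 0.143 over the 6 pairs of groups. That cannot settle whether single genes shared a replicate effect, and RPN4 was higher in replicate 2 than in replicate 1 in each of the 4 groups. With the replicate number as a block, RPN4 passed with aTC in the deletion (log2 0.459) and in wild type (0.4162) and in the deletion with aTC (0.2707). Of the 33 genes, 1 was then called with aTC in the deletion and 1 with aTC in wild type. Over all 5932 genes the block fit called 38 and 22 in those comparisons, and 757 in the deletion with aTC.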
